A study of Mus musculus with 20 samples.

Results

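The proteasome subunit genes described here are the 39 mouse genes of 17097 measured whose symbol starts with Psma, Psmb, Psmc or Psmd and ends in a number, or is Psme followed by a number, with 1 immunoproteasome gene left out by the rule. Where a gene had several probe sets, the brightest on average across all 20 arrays stood for it, so the choice used no difference between groups. Of the 39 genes, 18 encode subunits of the core, 18 encode subunits or assembly chaperones of the regulatory cap, and 3 encode activators. A further 3 genes with these kinds of symbol were not analysed here. The livers came from 20 mice aged 11 weeks, 5 in each of 4 groups, all F1 hybrids of C57BL6J and FVB parents. Progeroid mice were Ercc1Δ/-, carrying a truncated and a null allele of a DNA repair endonuclease subunit in every cell, and wild type littermates were the controls. Within a genotype, 5 mice were fed AIN93G pellets without restriction (progeroid control, wild type control) and 5 had restricted food (progeroid restricted, wild type restricted). Restriction started at 7 weeks with a cut of 10% and stood at 30% from 9 weeks. Wild type mice ate 3.0 g per day when unrestricted and 2.1 g when restricted; an amount of 1.6 g is also given and is read here as that of restricted progeroid mice. The labels give neither the sex of the mice nor the hour at which livers were taken.

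The proteasome is the protease complex that degrades most ubiquitin-tagged proteins in the cytosol and nucleus. Its barrel-shaped core is built of outer rings of alpha subunits and inner rings of beta subunits, of which 3 carry the active sites, while the cap recognises ubiquitin, removes it and unfolds the substrate with a ring of ATPases. Interferons induce alternative catalytic subunits that replace the standard ones in newly made cores, the immunoproteasome, and induce the activator of the core formed by Psme1 and Psme2, and both favour the making of peptides for MHC class I. When proteasome activity falls short, the transcription factor NRF1 (Nfe2l1) raises the standard subunit genes together.

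Expression is given as log2 units of the deposited values, in which 1 unit is a doubling, and group values as mean ± SD with n = 5. A level also depends on the probes, so levels are not compared between genes. Differences come from limma, with the moderated standard error (SE), and a gene is called higher or lower at an adjusted p under 0.05. Ercc1 itself checked the labels: its mean levels were 6.54 and 6.15 in wild type and 5.30 and 4.80 in progeroid mice on the control and restricted diets. The 8 measured hepatocyte markers averaged between 12.89 and 13.14 in every array. On the control diet 1 of them, Hnf4a, was lower in progeroid mice, beside 4.32% of all genes. Under restriction 2 were lower, Serpina1a and Hnf4a, beside 5.44%. With restriction 1 fell in progeroid mice, Serpina1a, beside 5.07%, and 1 rose in wild type mice, Cps1, beside 9.92%. As a gauge of RNA quality, the Gapdh signal near the 3' end exceeded that near the 5' end by 0.93 ± 0.28 in progeroid control, 0.81 ± 0.24 in progeroid restricted, 0.66 ± 0.06 in wild type control and 0.76 ± 0.12 in wild type restricted mice (log2 units); its part in the results was not tested beyond the covariate fit of the closing section.

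Most proteasome genes differed little between the 4 groups. The changes that passed the test fell on a few genes: Psmb9 and Psmb10 among the inducible catalytic subunits, Psmd9, Psmd5, Psmd13, Psmd3 and Psmd2 in the cap, and Psme1 among the activators. On the control diet 1 of the 39 genes was higher in progeroid mice, against 6.7% of all genes, and 0 were lower, against 4.32%; 4 of the 39 had an unadjusted p under 0.05, against 24.3% of all genes. Under restriction 2 were higher in progeroid mice, against 11.8%, and 0 were lower, against 5.44%; 8 had an unadjusted p under 0.05, against 29.7%. With restriction, 2 genes rose in progeroid mice, against 6.94%, and 0 fell, against 5.07%; 9 had an unadjusted p under 0.05, against 25.2%. In wild type mice 3 rose, against 9.92%, and 3 fell, against 12.6%; 11 had an unadjusted p under 0.05, against 33%. These counts come from limma on the values as deposited. Centring arrays on the median of their genes is a scaling described in the closing section. With it, 4 and 17 of the 39 genes were lower in progeroid mice on the control and restricted diets. The same setting called 2798 and 6513 of all 17097 genes lower.

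On the values as deposited, the small changes were measured with enough precision to be bounded. The intervals here and below do not cover the centring of arrays on the median of their genes. That scaling moved the median genotype effect of all genes to -0.12 on the control diet and -0.17 under restriction. The 95% confidence interval of the genotype effect on the control diet lay within 1.25-fold either way for 33 of the 39 genes, against 56.1% of all genes. Under restriction this held for 31, against 52.8%. For the diet effect it held for 28 genes in progeroid mice, against 55.4%, and for 28 in wild type mice, against 50.2%. Within 1.5-fold lay 38 of the 39 on the control diet (86.5% of all genes), 37 under restriction (84%), 37 for diet in progeroid mice (87.1%) and 37 for diet in wild type mice (82.1%). The exceptions were Psmb9 on the control diet, Psmb9 and Psmb10 under restriction, Psma8 and Psmd9 for diet in progeroid mice, and Psmb9 and Psmd9 for diet in wild type mice. The median change over the 39 genes was between -0.02 and 0.02 in the 4 comparisons, beside -0.03 to -0.0026 over all genes tested. Over the 32 members with a mean level of at least 9 the median gap between the lowest and highest group mean was 0.17, beside 0.30 over the 2556 genes with a mean of at least 9, while the median SD within groups was 0.11 and 0.13.

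**Figure D1:**
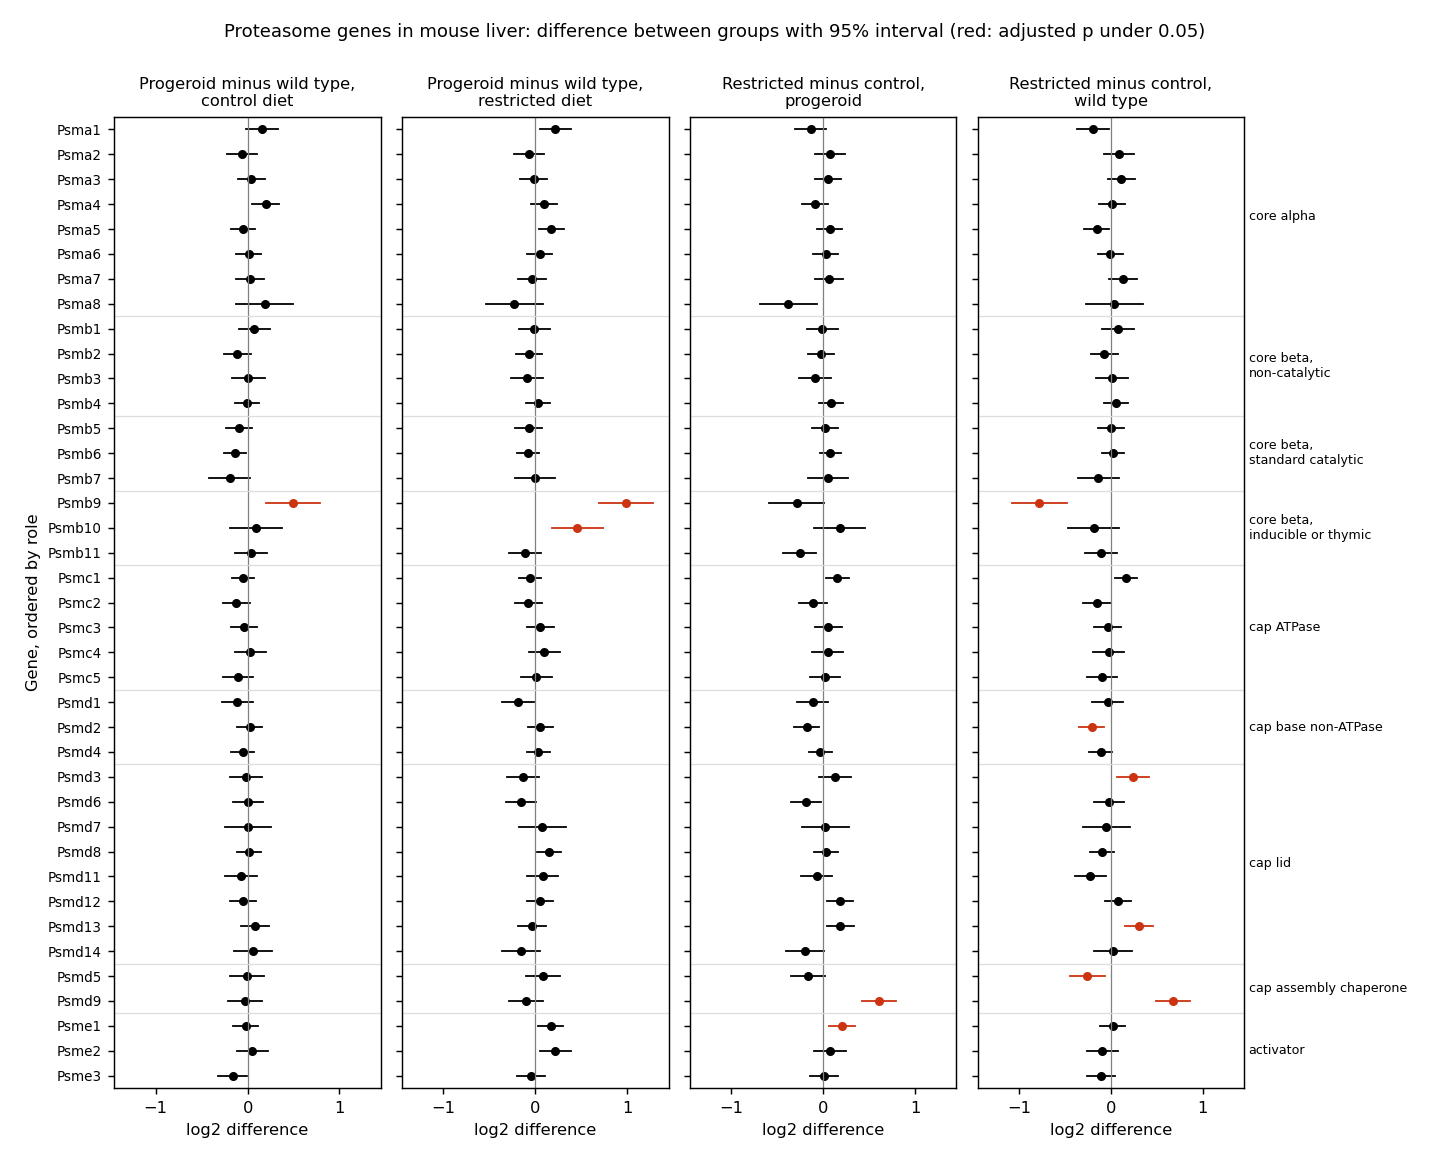
Log2 differences of the 39 proteasome genes (rows, by role) in the genotype effect on each diet and the diet effect in each genotype (panels), as points with 95% confidence intervals from limma (n = 5 per group). Most intervals cross 0 and stay within 1.25-fold; Psmb9, Psmb10 and Psmd9 stand away from the rest.

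The alpha subunits form the gated outer rings of the core. Read from their brightest probe sets, none of the 8 measured alpha genes was called in any of the 5 contrasts by limma. In each contrast 2 or fewer of the 8 had an unadjusted p under 0.05, beside 14.2% to 33% of all genes. The 7 genes Psma1 to Psma7 changed by -0.19 to 0.22 in the 4 pairwise comparisons. Psma4 was the 1 member whose control groups did not overlap by genotype, which 9.35% of all genes share: it lay between 10.96 and 11.06 in wild type control and between 11.08 and 11.40 in progeroid control mice, a difference of 0.19 ± 0.068 (SE; adjusted p = 0.073). Psma1 lay between 10.86 and 11.05 in wild type control and between 10.59 and 10.86 in wild type restricted mice (-0.19 ± 0.081; adjusted p = 0.0937). Psma7 has a second probe set nearly as bright as the one used (mean levels 10.82 and 10.87), and they disagree on diet. The second rose with restriction by 0.28 ± 0.083 in progeroid mice (adjusted p over all probe sets 0.0336) and by 0.31 ± 0.083 in wild type mice (0.0108), where the one used differed by 0.06 ± 0.073 and 0.13 ± 0.073 and was not called. Psma8, which serves the testis form of the core, was dim in every group, with means from 3.78 to 4.16 near the lower end of the scale, where folds are understated.

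The 4 non-catalytic beta genes, Psmb1 to Psmb4, changed by -0.11 to 0.09, and every 95% interval of theirs in the 4 pairwise comparisons lay within 1.25-fold. The standard catalytic subunits Psmb5 (chymotrypsin-like activity), Psmb6 (caspase-like) and Psmb7 (trypsin-like) were not called in any comparison either. Psmb5 was 10.64, 10.49, 10.64, 10.58 and 10.49 in wild type control animals 401 to 405. It was 10.60, 10.54, 10.42, 10.49 and 10.32 in progeroid control animals 321, 323, 325, 326 and 327. The groups overlap, and the difference was -0.09 ± 0.069 (adjusted p = 0.444). Under restriction it was 10.52, 10.52, 10.53, 10.74 and 10.52 in wild type animals 421 to 425 and 10.40, 10.60, 10.63, 10.41 and 10.41 in progeroid animals 362, 365, 366, 368 and 369, again with overlap (-0.07 ± 0.069; adjusted p = 0.522).

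For Psmb6 the values were 11.03, 11.01, 10.89, 10.94 and 10.87 in wild type control and 10.94, 10.80, 10.81, 10.74 and 10.77 in progeroid control mice, in the same order of animals. Progeroid animal 321 overlaps the wild type range and the other 4 lie below it, and the difference was -0.14 ± 0.056 (unadjusted p = 0.0246, adjusted p = 0.132). Under restriction Psmb6 was 10.95, 11.04, 10.96, 10.95 and 10.96 in wild type animals 421 to 425 and 10.78, 10.96, 11.00, 10.88 and 10.83 in progeroid animals 362, 365, 366, 368 and 369 (-0.08 ± 0.056; adjusted p = 0.378).

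Psmb7 was 9.41, 9.22, 9.41, 9.41 and 9.21 in wild type control and 9.41, 9.23, 8.78, 8.95 and 9.32 in progeroid control mice, where animals 325 and 326 lie low (-0.19 ± 0.11; adjusted p = 0.277). In the restricted groups it was 9.15, 9.37, 8.99, 9.11 and 9.35 in wild type and 9.07, 9.26, 9.37, 9.12 and 9.13 in progeroid mice, and the genotype difference there was -0.0035 ± 0.11 (adjusted p = 0.988). Over the 14 genes of the standard core, Psma1 to Psma7 and Psmb1 to Psmb7, the bounds of all 95% intervals in the 4 pairwise comparisons lay between -0.42 and 0.39, which is within 1.5-fold. The diet effect in progeroid mice was within 1.25-fold for all 14 as read from their brightest probe sets, which leaves out the second probe set of Psma7.

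The mean of the 14 standard core genes per animal shows the same narrow spread. Relative to the wild type control mean, it was 0.00 ± 0.05 in wild type control, -0.01 ± 0.11 in progeroid control, -0.0038 ± 0.08 in wild type restricted and 0.0028 ± 0.08 in progeroid restricted mice. The highest animal was progeroid control 321 at 0.16 and the lowest was progeroid control 325 at -0.13, so the ends of the range fell in 1 group. The mean of the 18 cap genes was -0.02 ± 0.08 in progeroid control, 0.01 ± 0.09 in wild type restricted and -0.0035 ± 0.06 in progeroid restricted mice. The mean of the 3 activator genes was -0.04 ± 0.06, -0.06 ± 0.04 and 0.05 ± 0.07 in the same groups. All 4 groups overlap in each of these means.

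**Figure D2:**
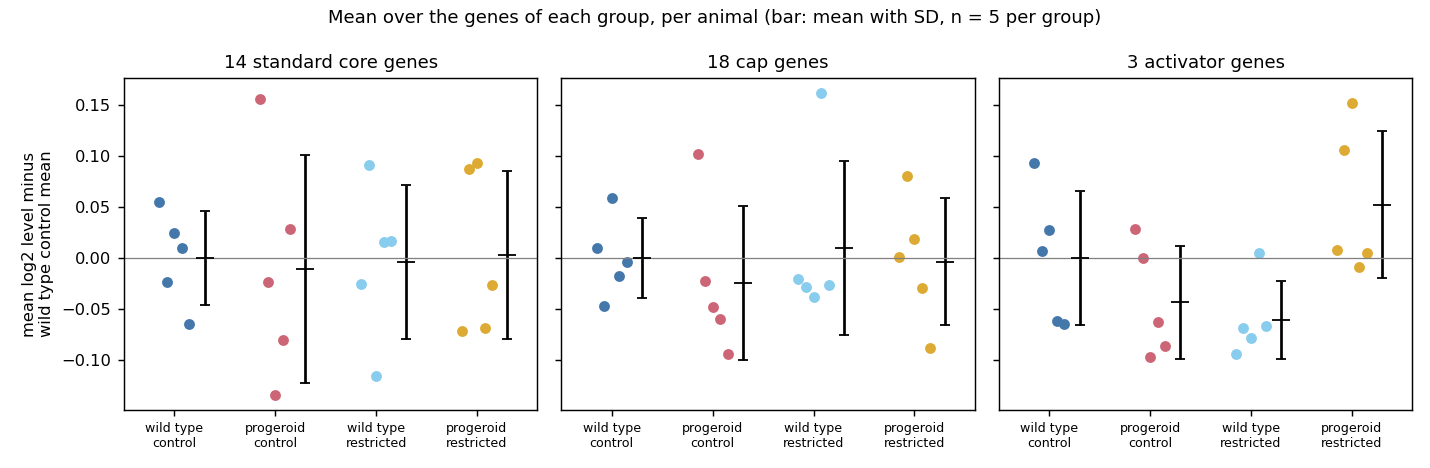
Mean log2 level of the 14 standard core genes, the 18 cap genes and the 3 activator genes in each animal, minus the wild type control mean, for the 4 groups (x axis; points are animals, bars the group mean and SD, n = 5). The groups overlap in all 3 panels, and standard core means stay between -0.13 and 0.16.

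Of the 3 inducible or thymic catalytic subunits, Psmb9 and Psmb10 were called. Psmb9, which takes the place of Psmb6 in the immunoproteasome, was 8.30, 8.44, 8.76, 8.44 and 8.39 in wild type control animals 401 to 405 and 8.71, 9.25, 8.84, 9.06 and 8.94 in progeroid control animals 321, 323, 325, 326 and 327. All progeroid values lie above 4 of the 5 wild type values, and wild type 403 exceeds progeroid 321. The difference was 0.49 ± 0.14 (SE), 1.41-fold, with an adjusted p of 0.0273 (limma). The call was lost without progeroid control animals 323 (adjusted p = 0.08) or 326 (0.0593) or wild type control animals 401 (0.0709), 402 (0.0549), 404 (0.0543) or 405 (0.0543).

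Under restriction Psmb9 was 8.08, 7.87, 7.28, 7.59 and 7.62 in wild type animals 421 to 425 and 8.26, 8.78, 8.88, 8.88 and 8.55 in progeroid animals 362, 365, 366, 368 and 369. The groups do not overlap, a property of 11.9% of all genes in this comparison that among the 39 members Psme1 shares. Psmb9 was 1.98-fold higher in progeroid mice (0.98 ± 0.14; adjusted p = 6.74e-05). Restricted wild type mice also had less Psmb9 than wild type controls, without overlap, by 1.71-fold (-0.78 ± 0.14; adjusted p = 0.000456). In progeroid mice the diet effect was -0.29 ± 0.14 with overlapping groups (adjusted p = 0.209).

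Psmb10, which replaces Psmb7, was 9.55, 9.57, 9.22, 9.02 and 9.03 in wild type control and 9.16, 9.58, 9.52, 9.38 and 9.20 in progeroid control mice, and these groups overlap throughout (0.09 ± 0.13; adjusted p = 0.744). Under restriction it was 9.47, 8.88, 8.91, 9.09 and 9.12 in wild type and 9.25, 9.72, 9.70, 9.67 and 9.41 in progeroid mice. Wild type animal 421 lies among the progeroid values and the other 4 below them, and the difference was 0.46 ± 0.13, 1.37-fold (adjusted p = 0.022). That call was lost without progeroid restricted animals 365 (adjusted p = 0.0577), 366 (0.0596) or 368 (0.0578) or wild type restricted animals 422 (0.0607) or 423 (0.0609), and with arrays centred on the median of their genes (0.28; adjusted p = 0.0676). The diet effects on Psmb10 were 0.18 ± 0.13 in progeroid and -0.19 ± 0.13 in wild type mice, and neither passed the test. Psmb11, the catalytic subunit of the thymus form, was dim, with group means from 3.17 to 3.42.

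**Figure D3:**
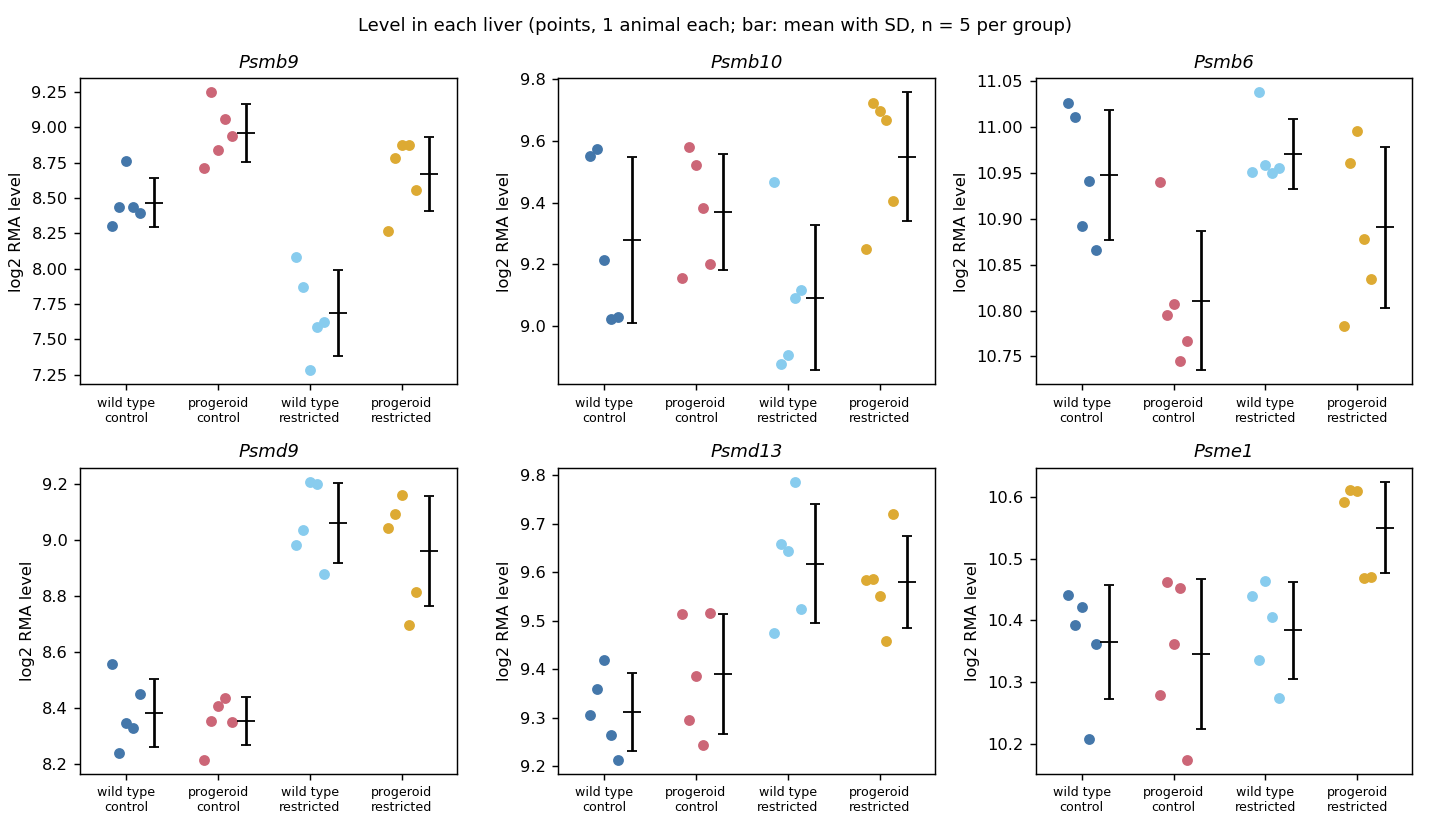
Log2 levels of Psmb9, Psmb10, Psmb6, Psmd9, Psmd13 and Psme1 in each of the 20 animals by group (points are animals, bars the group mean and SD, n = 5; each panel has its own scale). Psmb9 is lowest in restricted wild type mice, from 7.28 to 8.08, and Psmd9 is higher in every restricted animal than in any control.

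Psmb9 and Psmb10 are expressed more strongly in immune cells than in hepatocytes and are induced by interferon in both, and whole liver was measured, where fewer cells of a type and less RNA per cell cannot be told apart. Of 15 measured interferon response genes, 9 were higher in progeroid mice on the control diet, beside 6.7% of all genes. Under restriction 11 were higher, beside 11.8%. The median change was 0.59 and 0.93. Usp18, which removes the ubiquitin-like ISG15, was higher by 2.16 ± 0.28 and 2.91 ± 0.28, and Xaf1 by 1.29 ± 0.16 on the control diet. Gbp3, a guanylate-binding protein, was 3.99-fold higher under restriction. In wild type mice 8 of the 15 fell with restriction, beside 12.6% of all genes, among them the interferon-inducible GTPase Iigp1 (-0.76 ± 0.11). There 1 rose, the MHC class I transactivator Nlrc5 (0.94 ± 0.16), beside 9.92%. In progeroid mice 1 rose with restriction (Gbp3, 0.67 ± 0.18) and 1 fell (Stat2, -0.67 ± 0.10), beside 6.94% and 5.07% of all genes. The mean level of the 15 genes ranged over animals from 6.78 to 7.25 in wild type control, 7.54 to 7.88 in progeroid control, 6.33 to 6.94 in wild type restricted and 7.33 to 7.91 in progeroid restricted mice.

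Some macrophage markers were called in the comparisons in which Psmb9 was. Of 11 measured Kupffer cell and macrophage markers, 2 were higher in progeroid mice on the control diet, the Kupffer cell receptors Vsig4 (0.59 ± 0.13) and Clec4f (0.48 ± 0.13), where 6.7% of all genes were higher. Under restriction 9 were higher, beside 11.8% of all genes, among them Clec4f (0.89 ± 0.13) and the lysosomal Cd68 (1.19 ± 0.25). In wild type mice 3 fell with restriction, beside 12.6% of all genes, including Adgre1 (-0.94 ± 0.14) and Clec4f (-0.72 ± 0.13), and in progeroid mice 1 rose, Marco (1.15 ± 0.36). Marco was also higher on average in restricted than in control wild type mice (5.24 ± 0.96 against 4.39 ± 0.38, not called), opposite in sign to Psmb9. All other measured markers were lower on average in restricted than in control wild type mice, the sign of Psmb9. The median change over the 11 there was -0.44. The mean of the 11 markers ranged from 7.74 to 8.17 in wild type control, 7.97 to 8.64 in progeroid control, 7.26 to 7.82 in wild type restricted and 8.06 to 8.86 in progeroid restricted mice; 1 of the 11, Marco, had a mean under 5 in wild type control mice and none did in the other groups.

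Other immune markers were mostly dim. Of 7 neutrophil and monocyte markers, S100a8 and S100a9 were higher in progeroid mice on the control diet (1.47 ± 0.19 and 1.47 ± 0.18) and under restriction (1.22 ± 0.19 and 1.13 ± 0.18), 1 of the 7, Ccr2, fell with restriction in wild type mice (-0.42 ± 0.11), and the mean of the 7 stayed between 4.01 and 4.65 over all animals. All 9 measured T, B and NK cell markers had group means under 5, 0 were called between genotypes by limma, and the smallest adjusted p there was 0.189 on the control diet and 0.194 under restriction. With restriction 1 of these fell in progeroid mice (Cd4, -0.29 ± 0.08) and 2 in wild type mice (Cd4, -0.29 ± 0.08, and Cd3d, -0.27 ± 0.09). Of 4 measured genes of peptide loading, which pass proteasome products to MHC class I, 0 were called on the control diet (smallest adjusted p = 0.0837, Erap1) and Tapbp was higher in progeroid mice under restriction (0.37 ± 0.12). The endoplasmic reticulum chaperones Pdia3 (-0.60 ± 0.11) and Calr (-0.43 ± 0.10) fell with restriction in progeroid mice, and in wild type mice Pdia3 fell (-0.36 ± 0.11) and the peptide trimming enzyme Erap1 rose (0.25 ± 0.07). Of 8 stellate cell markers, 3 were higher in progeroid mice on each diet, but Lum alone was called on both. Dcn was among the 3 on the control diet, and Col1a1 and Col3a1 were among the 3 under restriction. With restriction in wild type mice 2 rose, Dcn and Lum, and 2 fell, Col1a1 and Col3a1. Beside the counts of these lists, 6.7% and 11.8% of all genes were higher in progeroid mice on the control and restricted diets. With restriction 5.07% of all genes fell in progeroid mice, and 9.92% rose and 12.6% fell in wild type mice. The part of macrophages, stellate cells and interferon in the levels of Psmb9 and Psmb10 was not tested.

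Psmb9 has 3 probe sets on the array. The one used above had a mean of 8.45. In another, with a mean of 6.63, the genotype effect was 0.34 ± 0.15 on the control diet (adjusted p over all probe sets 0.161) and 0.66 ± 0.15 under restriction (0.00388), and the diet effect was -0.28 ± 0.15 in progeroid and -0.60 ± 0.15 in wild type mice (0.00602), so all 4 directions were those of the brighter probe set. The dimmest, with a mean of 3.47, had group means from 3.33 to 3.55 and was not called. With the mean of all 3 probe sets the genotype effect on the control diet was 0.21 (adjusted p = 0.12) and did not pass the test, while that under restriction was 0.53 (adjusted p = 0.00121) and the diet effect in wild type mice was -0.47.

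**Figure D4:**
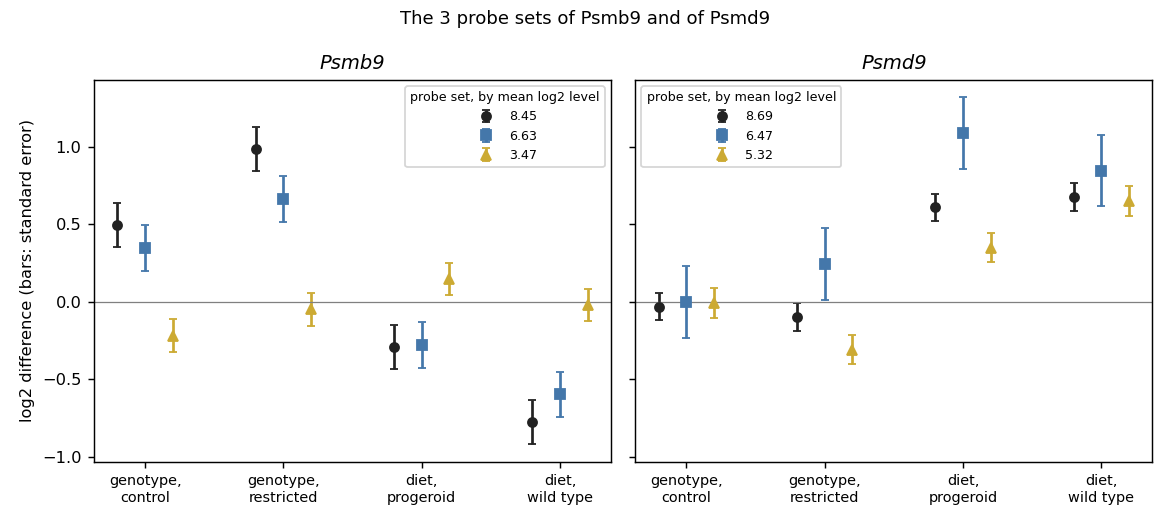
Log2 differences (y axis; bars are the SE) of each of the 3 probe sets of Psmb9 (left) and Psmd9 (right) in the genotype effect on each diet and the diet effect in each genotype (x axis), with probe sets named by their mean level. The Psmb9 probe sets at 8.45 and 6.63 lie on the same side of 0 in all 4 comparisons and that at 3.47 does not, while all 3 of Psmd9 lie above 0 for diet in both genotypes.

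The promoters of these genes are shown for Psmb9 and Psmb10, which changed with genotype, for Psmb6, the standard counterpart of Psmb9 that did not pass, and for Psmd9, the gene called with diet in both genotypes. Each line holds the 250 bases before the annotated start, 5′ to 3′ on the strand of the gene, from RefSeq with assembly GRCm38.p6: Psmb9 at chr17:34187331-34187580 on the minus strand, Psmb10 at chr8:105938393-105938642 on the minus strand, Psmb6 at chr11:70525107-70525356 on the plus strand and Psmd9 at chr5:123227940-123228189 on the plus strand. Capitals mark matches, on either strand, to the motifs searched.
Psmb9: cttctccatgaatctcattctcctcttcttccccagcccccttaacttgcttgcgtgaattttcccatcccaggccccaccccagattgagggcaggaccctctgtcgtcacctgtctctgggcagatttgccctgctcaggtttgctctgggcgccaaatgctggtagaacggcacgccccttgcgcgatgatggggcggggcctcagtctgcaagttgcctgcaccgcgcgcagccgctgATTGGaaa
Psmb10: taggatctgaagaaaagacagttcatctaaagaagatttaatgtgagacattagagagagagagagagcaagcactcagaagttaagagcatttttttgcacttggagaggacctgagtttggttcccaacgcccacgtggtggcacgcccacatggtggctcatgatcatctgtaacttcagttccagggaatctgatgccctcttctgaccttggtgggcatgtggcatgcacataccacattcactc
Psmb6: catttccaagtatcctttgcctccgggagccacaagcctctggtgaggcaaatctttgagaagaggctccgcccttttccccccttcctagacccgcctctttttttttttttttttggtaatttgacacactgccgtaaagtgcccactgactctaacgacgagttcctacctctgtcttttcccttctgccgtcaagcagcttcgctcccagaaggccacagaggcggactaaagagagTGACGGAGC
Psmd9: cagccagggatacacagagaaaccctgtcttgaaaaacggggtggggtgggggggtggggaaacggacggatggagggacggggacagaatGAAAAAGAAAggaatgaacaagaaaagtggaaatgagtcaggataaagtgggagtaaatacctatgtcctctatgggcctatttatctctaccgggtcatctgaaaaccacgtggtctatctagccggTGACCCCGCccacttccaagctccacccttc

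The motifs were the core of the antioxidant response element TGACNNNGC, which NRF1 and NRF2 bind with small Maf proteins, the core of the interferon-stimulated response element TTTCNNTTTC, the STAT site TTCNNNGAA and the CCAAT box. In these windows Psmb6 holds TGACNNNGC in the 9 bases before the start, Psmd9 holds it from 31 to 23 bases before the start and holds TTTCNNTTTC on the reverse strand from 159 to 150, and Psmb9 holds a CCAAT box on the reverse strand from 8 to 4. The window of Psmb10 holds none of these letters. No marked match overlaps another. Among 35 promoters listed for 32 members, 4 hold TGACNNNGC (11.4%, beside 10.2% of 32851 promoters of the same length), 3 hold TTTCNNTTTC (8.57%, beside 2.98%), 0 hold TTCNNNGAA (beside 7.02%) and 13 hold CCAAT (37.1%, beside 33.8%). A match is a description of the letters and was not tested as a binding site.

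Of the 18 cap genes 0 were called between genotypes on either diet by limma. An unadjusted p under 0.05 was found for 0 genes on the control diet, beside 24.3% of all genes. Under restriction it was found for 2, Psmd1 (-0.19 ± 0.082) and Psmd8 (0.14 ± 0.063), beside 29.7%. All 18 intervals lay within 1.25-fold on the control diet. With restriction 1 cap gene rose in progeroid mice, beside 6.94% of all genes, and in wild type mice 3 rose and 2 fell, beside 9.92% and 12.6%.

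Psmd9, a chaperone that helps to assemble the base of the cap and is not part of the finished proteasome, changed most among the cap genes. It was 8.56, 8.24, 8.35, 8.33 and 8.45 in wild type control and 8.98, 9.04, 9.21, 9.20 and 8.88 in wild type restricted mice. In progeroid mice it was 8.21, 8.35, 8.41, 8.44 and 8.35 in controls and 9.04, 9.09, 9.16, 8.70 and 8.81 under restriction. In neither genotype do the diets overlap. Restriction raised it 1.60-fold in wild type mice (0.68 ± 0.089; adjusted p = 1.56e-05) and 1.52-fold in progeroid mice (0.61 ± 0.089; adjusted p = 0.000181), and the difference of the diet effects was -0.07 with a 95% interval from -0.33 to 0.19.

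All 3 probe sets of Psmd9 rose. In progeroid mice the other 2 rose by 1.09 ± 0.23 (mean level 6.47) and 0.35 ± 0.096 (mean level 5.32), and in wild type mice by 0.85 ± 0.23 and 0.65 ± 0.096. The probe set at 5.32 was also lower in progeroid than in wild type mice under restriction (-0.31 ± 0.096; adjusted p over all probe sets 0.0349), where the probe set used above differed by -0.10 ± 0.089. The calls of Psmd9 held with each of the 20 animals left out.

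Psmd5, the other chaperone of the base measured here, moved the opposite way in wild type mice. It was 8.81, 8.80, 8.78, 8.74 and 8.79 in controls and 8.64, 8.50, 8.26, 8.63 and 8.61 under restriction, where 423 is lowest, without overlap (-0.26 ± 0.089; adjusted p = 0.0446). In progeroid mice it was 9.04, 8.78, 8.57, 8.54 and 8.97 in controls and 8.56, 8.64, 8.56, 8.66 and 8.63 under restriction, with overlap (-0.17 ± 0.089; adjusted p = 0.247). The wild type call was lost with any of 13 animals left out, at adjusted p from 0.0508 to 0.14, and kept without 321, 325, 326, 327, 362, 421 or 424; with arrays centred on the median of their genes the adjusted p was 0.117.

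The lid of the cap removes ubiquitin chains. Psmd13, a lid scaffold subunit, was 9.30, 9.36, 9.42, 9.26 and 9.21 in wild type control and 9.47, 9.66, 9.64, 9.79 and 9.52 in wild type restricted mice. The groups do not overlap, and it rose 1.24-fold (0.31 ± 0.072; adjusted p = 0.00408). In progeroid mice it was 9.51, 9.29, 9.39, 9.24 and 9.52 in controls and 9.58, 9.59, 9.55, 9.46 and 9.72 under restriction, with overlap (0.19 ± 0.072; adjusted p = 0.098). Psmd3, also of the lid, was 8.88, 8.87, 8.89, 8.75 and 8.97 in wild type control and 9.07, 8.97, 9.16, 9.27 and 9.06 in wild type restricted mice. Every restricted value exceeds every control value, though both edges round to 8.97, and the rise was 0.24 ± 0.083 (adjusted p = 0.045). In progeroid mice it was 8.96, 8.71, 9.11, 8.75 and 8.71 in controls and 9.09, 9.06, 8.81, 9.04 and 8.88 under restriction, which overlap (0.13 ± 0.083; adjusted p = 0.369). The wild type call of Psmd3 was lost without animals 365, 368, 401, 402, 403, 404, 421, 423, 424 or 425, at adjusted p from 0.0502 to 0.118, and with the Gapdh difference as covariate (0.0531).

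The other 6 lid genes were not called. Psmd14, the deubiquitinating enzyme of the lid, changed by -0.20 in progeroid and 0.02 in wild type mice with restriction. In the same order, Psmd11 changed by -0.07 and -0.22, and Psmd6 by -0.19 and -0.02. Psmd11 has 5 probe sets. The next brightest after the one used, with a mean of 9.87, changed by 0.05 ± 0.11 in progeroid and 0.02 ± 0.11 in wild type mice. A dim probe set of Psmd11 changed by -0.26 in wild type mice (adjusted p over all probe sets 0.0359). With restriction in progeroid and wild type mice, Psmd12 changed by 0.18 and 0.08, Psmd7 by 0.02 and -0.05, and Psmd8 by 0.03 and -0.10. The genotype effects of these 6 genes lay between -0.16 and 0.14 on the 2 diets.

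In the base, Psmd2, a scaffold that binds ubiquitin receptors, was 10.06, 10.03, 10.02, 10.01 and 9.95 in wild type control and 9.80, 9.72, 9.79, 9.95 and 9.77 in wild type restricted mice. The groups just fail to overlap, at 9.952 and 9.948, and it fell 1.16-fold (-0.21 ± 0.066; adjusted p = 0.0253). In progeroid mice it was 10.06, 9.95, 10.15, 9.97 and 10.04 in controls and 9.72, 9.99, 9.90, 9.97 and 9.70 under restriction, with overlap (-0.18 ± 0.066; adjusted p = 0.0799). The wild type call was lost without animals 401 (adjusted p = 0.0573), 422 (0.0652), 423 (0.0512) or 425 (0.0551), with the mean of its probe sets (-0.13; 0.0893) and with arrays centred on the median of their genes (-0.17; 0.0622). Psmd1 and the ubiquitin receptor Psmd4 changed by -0.19 to 0.03 in the 4 comparisons and were not called. Psmd4 has 3 probe sets. The next brightest after the one used, with a mean of 8.90, was not called. It changed with restriction by 0.01 ± 0.099 in progeroid and -0.26 ± 0.099 in wild type mice, and by -0.26 ± 0.099 with genotype on the control diet. The dimmest, with a mean of 4.94, fell with restriction in progeroid mice (-0.29 ± 0.077, adjusted p over all probe sets 0.0204).

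The ATPases unfold substrates and open the gate of the core. The 5 measured genes, Psmc1 to Psmc5, were called in none of the 5 contrasts by limma. All their intervals in the 4 pairwise comparisons lay within 1.25-fold. With restriction an unadjusted p under 0.05 was found for 1 of the 5 in progeroid mice, beside 25.2% of all genes. In wild type mice it was found for 2, beside 33%. Psmc1 had the highest diet effect of the 5 in both genotypes: in wild type mice it lay between 10.04 and 10.19 in controls and between 10.22 and 10.41 under restriction, a difference of 0.16 ± 0.059 that missed the threshold (adjusted p = 0.0508), and differed by 0.16 ± 0.059 in progeroid mice (adjusted p = 0.0957). Psmc2 changed by -0.11 and -0.16 in progeroid and wild type mice. In wild type mice 9 of the 39 genes had restricted and control groups that did not overlap, beside 15.7% of all genes, and besides the 6 called genes these were Psmc1, Psma1 and Psma5. In progeroid mice these were 2 of the 39, Psmd9 and Psme1, beside 8.97%.

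Psme1 and Psme2 together form the interferon-inducible activator ring of the core, and Psme3 forms a nuclear one by itself. Psme1 was 10.28, 10.46, 10.36, 10.45 and 10.17 in progeroid control and 10.59, 10.61, 10.61, 10.47 and 10.47 in progeroid restricted mice, without overlap (0.20 ± 0.066, 1.15-fold; adjusted p = 0.0475). In wild type mice it was 10.44, 10.39, 10.42, 10.21 and 10.36 in controls and 10.44, 10.34, 10.46, 10.40 and 10.27 under restriction (0.02 ± 0.066; adjusted p = 0.882). All restricted progeroid values also exceed all restricted wild type values, with a difference of 0.17 ± 0.066 (adjusted p = 0.0909). The diet call in progeroid mice was kept without animals 323, 326, 368, 404 or 425 and lost without each of the other 15, at adjusted p from 0.0502 to 0.116; it was also lost in 5 of the 9 other settings of the processing.

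Psme2 was 10.93, 10.85, 10.83, 10.62 and 10.68 in wild type control and 10.92, 10.93, 10.71, 10.76 and 10.84 in progeroid control mice. Under restriction it was 10.74, 10.77, 10.55, 10.67 and 10.72 in wild type and 10.65, 11.03, 11.10, 10.83 and 10.93 in progeroid mice, where animal 362 alone falls within the wild type range. The genotype difference under restriction was 0.22 ± 0.081 (adjusted p = 0.0718) and the other 3 comparisons gave between -0.09 and 0.07. Psme3 was 7.88, 7.75, 7.80, 7.95 and 7.74 in wild type control and 7.86, 7.58, 7.61, 7.57 and 7.69 in progeroid control mice. Under restriction it was 7.51, 7.66, 7.72, 7.91 and 7.78 in wild type and 7.75, 7.65, 7.72, 7.64 and 7.58 in progeroid mice, and the groups overlap on both diets. Its genotype effect on the control diet was -0.16 ± 0.074 (adjusted p = 0.168), and the other comparisons gave between -0.11 and 0.01.

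No proteasome gene passed the test of the difference between the diet effects (progeroid minus wild type) in limma, where 1.03% of all genes were higher and 0.374% lower; 2 of the 39 had an unadjusted p under 0.05, beside 14.2% of all genes. These were Psmb9 (0.49 ± 0.20, 95% interval from 0.07 to 0.91; unadjusted p = 0.024, adjusted p = 0.262) and Psma5 (0.23 ± 0.091, interval from 0.04 to 0.41; unadjusted p = 0.0214, adjusted p = 0.25). For Psmb10 the difference was 0.37 with an interval from -0.03 to 0.76, and for Psme1 0.19 with an interval from -0.0082 to 0.38. The intervals of 18 of the 39 genes lay within 1.25-fold, beside 30.6% of all genes, and those of 36 within 1.5-fold, beside 78.9%; the exceptions to the latter were Psma8, Psmb9 and Psmb10. The diet effects in the 2 genotypes share no arrays; across the 39 genes they had a Pearson correlation of 0.66 and a Spearman correlation of 0.52, and 22 had the same sign. Without Psmb9 and Psmd9 the Pearson correlation was 0.40 over 37 genes. The genotype effects on the 2 diets correlated at 0.63 over 39 genes and at 0.23 without Psmb9. Genes are not independent replicates, and each array carries all of them.

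Of 5 measured assembly factors dedicated to the core, 4 fell and 1 rose with restriction in wild type mice, with a median change of -0.30, where 12.6% of all genes fell and 9.92% rose. In progeroid mice 1 fell and 1 rose, beside 5.07% and 6.94%, and 3 were not called. Pomp, which matures the beta ring, fell by 0.36 on the log2 scale (SE 0.071; adjusted p = 0.000847) and Psmg2, which guides the alpha ring, by 0.37 (SE 0.069; adjusted p = 0.000604). Psmg1, the partner of Psmg2, and Psmg3 fell by 0.23 and 0.30, and Psmg4, the partner of Psmg3, rose by 0.25 (SE 0.065; adjusted p = 0.00706). In progeroid mice Pomp fell by 0.24 (adjusted p = 0.0315) and Psmg4 rose by 0.20 (adjusted p = 0.0484), while Psmg2 changed by -0.18 (adjusted p = 0.0995). Between genotypes 0 of the 5 were called on the control diet (smallest adjusted p = 0.288, limma), and Psmg2 was higher in progeroid mice under restriction (0.28 ± 0.069; adjusted p = 0.00788).

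Among 7 measured regulators of proteasome and antioxidant genes, Nfe2l1 fell with restriction in wild type mice from 8.95 to 8.53 (-0.42 ± 0.071; adjusted p = 0.000239) and changed by -0.09 ± 0.071 in progeroid mice; the difference of these diet effects was 0.33 ± 0.10 (adjusted p = 0.113). Nfe2l2, which encodes NRF2, was higher in progeroid mice on the control diet (0.65 ± 0.12) and under restriction (0.35 ± 0.12), as was its small Maf partner Mafk (0.31 ± 0.092 and 0.27 ± 0.092). Bach1, a repressor at the same DNA element, rose with restriction by 0.55 ± 0.11 in progeroid and 0.53 ± 0.11 in wild type mice, and Maff rose by 1.16 ± 0.26 in progeroid mice. Of 11 measured NRF2 targets, 4 were higher and 1 lower in progeroid mice on the control diet, beside 6.7% and 4.32% of all genes. Under restriction 5 were higher and 1 lower, beside 11.8% and 5.44%. The lower gene was Me1 on both diets, and the median change of the 11 was 0.09 and 0.60. Among the higher genes were Nqo1 at 1.28 ± 0.15 and Gsta2 at 1.71 ± 0.21 on the control diet and Srxn1 at 1.07 ± 0.14 under restriction. With restriction 2 of the 11, Nqo1 and Gsta2, rose in both genotypes, and 2, Gclc and Gclm, fell in wild type mice. Of all genes, 6.94% rose in progeroid mice, and 9.92% rose and 12.6% fell in wild type mice.

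**Figure D5:**
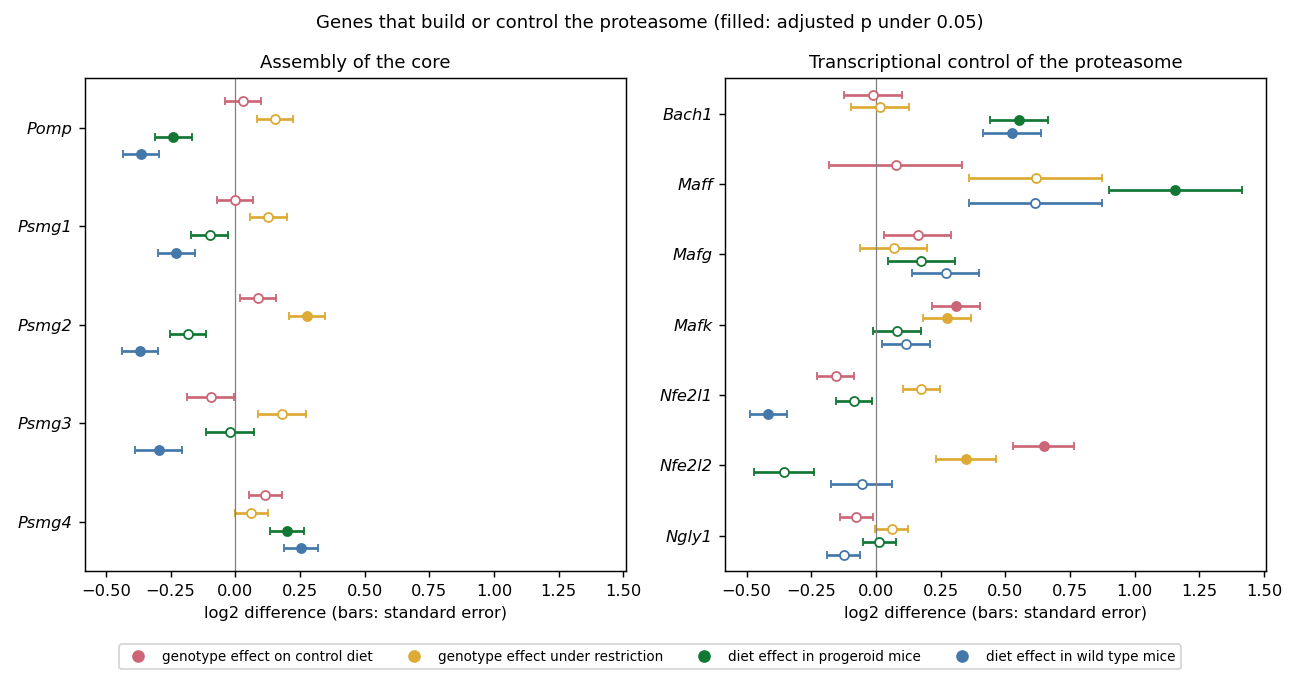
Log2 differences (x axis; bars are the SE) of 5 assembly factors of the core (left) and 7 regulators (right) in the 4 pairwise comparisons (colours); filled points passed the test. The diet effect in wild type mice lies below 0 for Pomp, Psmg1, Psmg2 and Psmg3 and above 0 for Psmg4, and Nfe2l1 stands at -0.42.

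Partners of the cap outside the rule mostly did not pass the test. Of 13 measured, 0 were called by genotype on the control diet (smallest adjusted p = 0.0595, limma). Under restriction 2 were higher in progeroid mice, beside 11.8% of all genes: the shuttle factor Ubqln2 (0.52 ± 0.086) and the proteasome inhibitor Psmf1 (0.42 ± 0.12). The cap deubiquitinase Uchl5 rose with restriction in progeroid mice (0.39 ± 0.081). The shuttle factor Ubqln1 fell in progeroid and wild type mice (-0.21 ± 0.068 and -0.23 ± 0.068), and Zfand2a, a stress-induced partner of the cap, fell in wild type mice (-0.46 ± 0.12). Of 9 measured genes of the p97 unfoldase adaptors and of degradation from the endoplasmic reticulum, 2 and 3 were lower in progeroid mice on the control and restricted diets and none was higher. Of all genes, 4.32% and 5.44% were lower there. Faf1, an adaptor, was lower by -0.48 ± 0.077 and -0.55 ± 0.077, and Sel1l, which supports the ubiquitin ligase Syvn1, by -0.46 ± 0.094 and -0.37 ± 0.094. With restriction 2 fell in progeroid mice, Derl1 (-0.27 ± 0.068) and Faf2 (-0.26 ± 0.085), and 4 fell in wild type mice, among them Syvn1 (-0.88 ± 0.23) and Sel1l (-0.33 ± 0.094). Of all genes, 6.94% rose and 5.07% fell with restriction in progeroid mice, and 12.6% fell in wild type mice. None of the 3 measured genes of ubiquitin and its activation was called in any contrast by limma, with the smallest adjusted p of the pairwise comparisons at 0.202 for Nae1.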

How the data were processed

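Total RNA of 20 livers was hybridised to 1 Affymetrix array each, with groups taken from the sample titles. The authors deposited log2 values that, per the submitters' processing notes, come from RMA (robust multi-array averaging, version not given in the sources used here). Since this method brings arrays to a like distribution, an overall shift would not be seen; array medians lay between 4.17 and 4.21. Gene symbols came from the annotation of the platform: of 45141 probe sets, 104 are controls, 28898 carry 1 symbol and 551 carry several, and those with several or none were not used. The brightest probe set stood for each of 17097 genes, and no filter on dim genes was applied. The number of arrays limits the precision.

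In limma 3.58.1 (R 4.3.3) the 20 arrays entered 1 linear model with the 4 group means as coefficients (16 residual degrees of freedom), with 5 contrasts and Benjamini-Hochberg adjustment over all genes in each; tests are two-sided. The fit was tested on simulated data with known fold changes, in which genes varied independently and no array was shifted. Such data cannot gauge the effect of array shifts or of genes that vary together. The labels name single animals, so the spread is that between animals. Alternatives were 8 planned settings, 1 setting added after the data were seen (centring on all probe sets) and each animal left out in turn.

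The members and lists were chosen with earlier results of these data known. Values are given per animal for members called in any comparison, standard and inducible catalytic subunits and activators. From each list the 2 genes with the smallest adjusted p in each pairwise comparison could be named. Psma4, Psma1 and other members singled out, and Psmg1, Psmg3, Me1, Gclc and Gclm, were chosen after their values were seen. Lists are described by counts and medians, with no set test. Promoters matched 32 of 39 members by symbol. No table of proteins was used here.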

Additional observations from a re-analysis of the deposited data

Results flagged for a closer look

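Of 156 groups of 5 animals over the 39 proteasome genes, 4 held an animal whose gap to the nearest other value exceeded 0.71 of the range of the group; chance gives about 1 in 20. Psmb4, a non-catalytic beta subunit, was 11.77 in progeroid control animal 321, where the next value was 11.61. Psmb5 was 10.74 in wild type restricted animal 424, next to 10.53. Psmb6 was 11.04 in wild type restricted animal 422, next to 10.96. Psmd1, a base subunit, was 10.33 in progeroid control animal 327, below the next value of 10.61. None of these genes was called in any of the 5 contrasts. No member differed between the genotypes in its diet effect after adjustment.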

How the results depend on the processing

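Psmd9 in both genotypes, Psmb9 under restriction and with diet in wild type mice, and Psmd13 in wild type mice kept their call under every setting run for them and with each animal left out. No called gene changed direction. With arrays centred on the median of their genes, which shifts every gene alike and moved the median genotype effect of all genes from -0.01 to -0.12 on the control diet and from -0.0026 to -0.17 under restriction, 4 members were lower on the control diet (Psmb2, Psmb6, Psmc2 and Psme3); under restriction 1 was higher and 17 were lower; with diet 1 was higher and 2 lower in progeroid mice, and 1 was lower in wild type mice. Of all 17097 genes, the same centring called 2798 lower by genotype on the control diet, and 1158 higher and 6513 lower under restriction. For diet it called 940 higher and 1133 lower in progeroid mice, and 1688 lower in wild type mice. The share of higher among all calls went from 60.8% to 21.4% and from 68.5% to 15.1% for genotype, from 57.8% to 45.3% for diet in progeroid mice, from 44.1% up to 53.3% for diet in wild type mice and from 73.3% to 56.1% for the difference of the diet effects. Centring on all probe sets, added after the data were seen, left every count of members as it was. The mean of all probe sets left 0 higher on the control diet. The Gapdh covariate gave 5 higher under restriction, and for diet in progeroid mice 1 higher and 1 lower. Suffixed probe sets removed, every probe set tested and the compared groups alone each left 1 higher there, and eBayes with trend and robust settings gave 1 lower. With 1 animal left out, higher members were 0 to 2 and lower 0 on the control diet, 1 to 4 and 0 under restriction, 1 to 2 and 0 to 1 for diet in progeroid mice, 2 to 4 and 1 to 5 in wild type mice, and 0 for the difference; the 2 higher on the control diet came without progeroid control 325, the 4 higher under restriction without progeroid restricted 362, and the 5 lower in wild type mice without wild type restricted 424. The cause of these moves was not tested. No paired analysis was possible because the groups share no animal numbers. Signal near the lower end of the scale limits Psma8 and Psmb11.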
